A study of Mus musculus with 16 samples.

Results

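The proteasome subunit genes were described in primary alveolar type II cells of the mouse, the epithelial cells of the lung that make surfactant. Members were the non-control probes whose gene name in the array files begins with Psma, Psmb, Psmc, Psmd, Psme, Psmf or Psmg and a digit. The rule gave 62 of 55681 probes and 49 of 34832 genes, and each gene was read from its brightest probe by the mean over 16 arrays. All cells came from C57BL/6 mice and no transgene or knockout is named in the labels. The groups were normoxia (21% O2) for 6 h, hyperoxia (85% O2) for 6 h, normoxia for 24 h and hyperoxia for 24 h, with 4 arrays each. The design asks how gene expression differs between these oxygen levels at each time. Neither the age of the mice nor the way the cells were isolated is given in the labels. They also do not say whether the arrays of a group came from separate cultures or animals, so the p-values measure the spread between these samples, which may be technical.

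The proteasome is the barrel-shaped protease that degrades proteins marked with ubiquitin in the cytosol and nucleus. Its 20S core is a stack of rings built from alpha subunits, which gate the entry pore, and beta subunits, some of which carry the active sites. A 19S regulator caps the core, binds ubiquitin chains and unfolds the substrate with a ring of ATPases. In cells exposed to interferon, the catalytic subunits Psmb5, Psmb6 and Psmb7 are replaced in newly built particles by Psmb8, Psmb9 and Psmb10, which gives the immunoproteasome and favours peptides for antigen presentation. Lung epithelium is known to carry both forms, and oxidised proteins are among the substrates of the 20S core.

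Because Psmb8 and Psmb5 are paralogs that behaved differently here, the start of each 60-base array probe is shown, on build mm9, as the first 30 bases of the printed probe. The Psmb8 probe lies at chr17:34337771-34337830 on the plus strand and the Psmb5 probe at chr14:55232957-55233016 on the minus strand, as the array annotation gives them.
Psmb8: acctcagtcctgaagaggcctacgaccttg
Psmb5: gcggttgtctgcatctctaggtgggtctcc
The longest run of identical bases between the whole Psmb8 and Psmb5 probes was 5 bases. It was 5 bases between the Psmb9 and Psmb6 probes, 6 bases between the Psmb10 and Psmb7 probes, and at most 11 bases between any of the members' brightest probes. Probes were compared only with each other and not with whole transcripts, so whether a probe also binds RNA of another member was not tested.

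Psmb8 and Psmb9 are neighbours in the major histocompatibility complex on chromosome 17, interleaved with Tap1 and Tap2, the subunits of the transporter that carries peptides into the endoplasmic reticulum. In the RefSeq annotation of GRCm38.p6 the order is Psmb9, Tap1, Psmb8 and Tap2, over 34292 bases in all. Psmb9 and Tap1 start back to back with 225 bases between them, and the stretch between Tap1 and Psmb8 measures 969 bases. The sequences before these starts are shown because the genes of the cluster moved in different directions. The first is the whole stretch between the Psmb9 and Tap1 genes (chr17:34187331-34187555, plus strand) and the second holds the 250 bases before Psmb8 (chr17:34197945-34198194, plus strand). The third holds the 250 bases before Psmb5 (chr14:54617996-54618245, minus strand), the constitutive counterpart of Psmb8. All are RefSeq sequences of GRCm38.p6, and capitals mark matches to any of 4 motifs searched on both strands.
Psmb9-Tap1: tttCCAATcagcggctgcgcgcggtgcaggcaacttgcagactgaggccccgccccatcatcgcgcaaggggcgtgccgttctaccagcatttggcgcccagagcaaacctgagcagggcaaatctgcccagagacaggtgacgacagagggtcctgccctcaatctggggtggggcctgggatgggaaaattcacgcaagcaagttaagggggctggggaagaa
Psmb8: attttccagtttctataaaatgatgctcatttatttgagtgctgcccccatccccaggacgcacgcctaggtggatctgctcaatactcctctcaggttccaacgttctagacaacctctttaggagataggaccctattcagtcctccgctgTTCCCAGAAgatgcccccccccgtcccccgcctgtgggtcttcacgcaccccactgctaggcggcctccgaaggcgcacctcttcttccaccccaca
Psmb5: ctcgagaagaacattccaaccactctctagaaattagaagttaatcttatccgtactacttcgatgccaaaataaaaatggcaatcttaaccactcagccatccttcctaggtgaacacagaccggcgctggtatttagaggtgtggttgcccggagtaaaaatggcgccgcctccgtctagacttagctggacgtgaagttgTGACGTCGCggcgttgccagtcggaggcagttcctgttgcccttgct
The motifs were TGACNNNGC, the core of the antioxidant response element, the interferon-stimulated response element, taken as GAAA, any 2 bases and GAAA again, TTCNNNGAA, the core bound by STAT factors, and CCAAT, which NF-Y binds. Psmb8 had a match to TTCNNNGAA, which 8.3% of all 32851 promoter windows also held. A window runs from 250 bases before a start to 50 after it, so it is longer than the stretches shown. The Psmb9 and Tap1 stretch had a CCAAT match beside the Psmb9 start, a motif found in 37.4% of windows. Psmb5 had a match to TGACNNNGC, found in 12.4% of windows. Of the 49 members, 41 had a promoter window in the table. TGACNNNGC was in 6 of these (Psmb5, Psmb6, Psmc6, Psmd9, Psmd12 and Psme4), the interferon element in 5 (Psmb3, Psmd4, Psmd9, Psme1 and Psmg4, against 3.44% of all windows), TTCNNNGAA in 3 (Psmb8, Psmd2 and Psmg1) and CCAAT in 15. A match says only that these letters are in the window.

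Levels are given as log2 of the processed signal with the 75th percentile of each array set to 0, so a difference of 1 is a 2-fold change, and levels of different probes are not compared. That percentile lay between 898.6 and 1021 signal units on the 6 h arrays, between 556.1 and 747.2 in normoxia at 24 h and between 684.8 and 800.6 in hyperoxia at 24 h. Between 53.7% and 69% of probes were well above background, and no spot was saturated. All 6 h arrays were on 1 slide and all 24 h arrays on another, so slide, scan and time cannot be told apart, and normoxia and hyperoxia arrays took different rows of each slide, so row and oxygen cannot be told apart. Of the type II cell markers, 9 of 10 could be tested and Slc34a2 was well above background on no array. The brightest fibroblast and smooth muscle markers, Tagln and Col1a2, stood at 8.21 ± 0.06 and 7.97 ± 0.17 (SD, n = 4) in normoxia at 6 h. Whether other cells or the type II cells themselves gave this signal was not tested. In these bulk samples, fewer cells of a type and less RNA per cell cannot be told apart.

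Of the 49 members, 47 passed the filter on dim probes, which kept a gene where its probe was well above background on 3 or 4 arrays of some group. Psma8, the testis form of an alpha subunit, and Psmb11, the thymus form of a catalytic subunit, were well above background on 0 of 16 arrays and were not tested. Psmc3ip matches the name rule but is a cofactor of meiotic recombination and no part of the proteasome. It was kept in the counts, as the rule requires, and is described apart. A gene was called higher or lower where its Benjamini-Hochberg adjusted p from limma, over all 25433 genes tested, was under 0.05.

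After 6 h, no proteasome gene passed the test between hyperoxia and normoxia. limma called 0 of 47 members, beside 0.326% of all genes tested (0.236% higher and 0.0904% lower), and the members' median change of 0.02 (range -0.22 to 0.16) stood beside 0.01 for all genes. At an unadjusted p under 0.05 the count was 1 of 47, beside 7.38% of all genes, and limma with array quality weights also called 0, beside 2.23%. That 1 member was Psmb10, the interferon-induced trypsin-like subunit, at 4.12, 4.20, 4.21 and 4.07 in normoxia and 4.00, 3.81, 4.12 and 3.80 in hyperoxia. The groups overlapped, with hyperoxia replicate 3 inside the normoxia range, and the difference of -0.22 ± 0.09 (SE) had an adjusted p of 0.543. The only member whose 6 h groups did not overlap was the alpha subunit Psma4, lower by a log2 change of -0.09 with an adjusted p of 0.845, and such a separation was seen in 4.31% of all genes, 2.31% with hyperoxia higher and 2% with hyperoxia lower.

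After 24 h, 9 members were higher in hyperoxia and 5 were lower. The genes that rose were structural alpha and beta subunits, 19S subunits, a 19S assembly factor, an activator and an inhibitor, by 0.19 to 0.39 on the log2 scale. Those that fell were the immunoproteasome subunits Psmb8 and Psmb10, the core assembly chaperones Psmg1 and Psmg2, and Psmc3ip. The share called was close to that of the array as a whole: of all genes tested, 28.3% were called, 15.5% as higher and 12.8% as lower. The members' median change was 0.05, beside 0.01 for all genes. Only Psmc3ip, 1 of the 47 members, passed with a change of at least 2-fold, beside 1192 of the 25433 genes tested. The 24 h groups did not overlap for 19 members, 12 higher and 7 lower, beside 33.2% of all genes (17.9% and 15.3%). Same-numbered arrays of the 24 h groups deviated together. With the replicate number as a block within each slide the counts were 9 higher and 6 lower, the added gene being Psme2. The shares of all genes were then 18.6% higher and 14.8% lower.

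**Figure D1:**
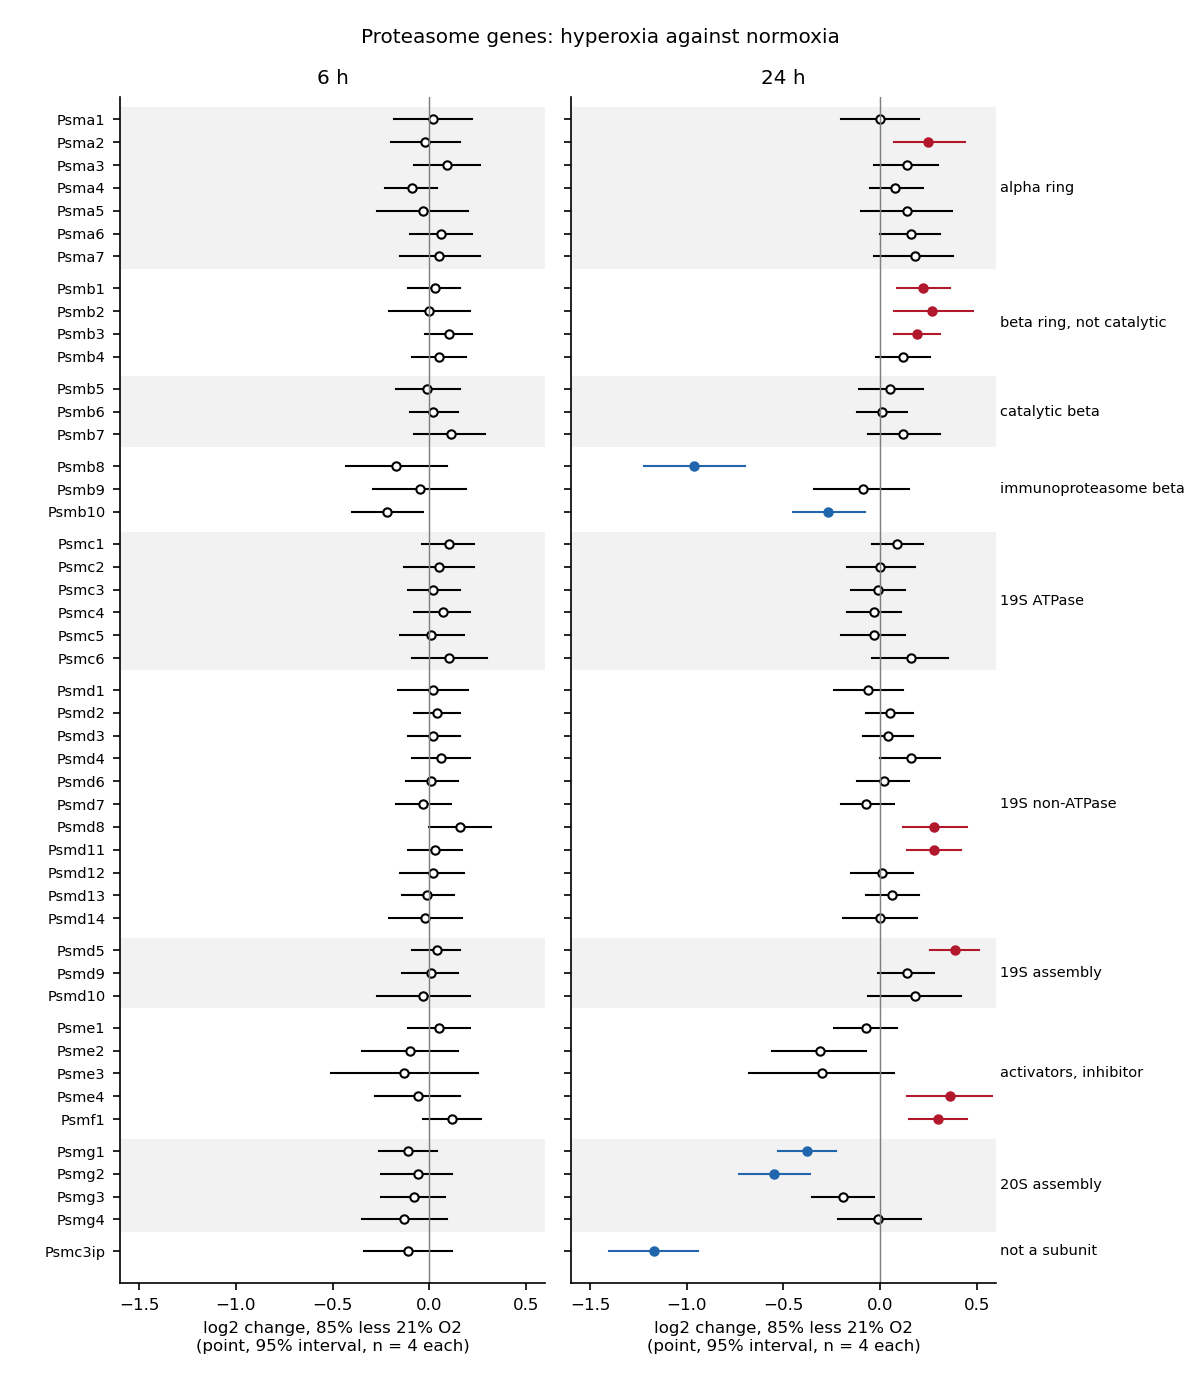
Log2 change of the 47 tested members, hyperoxia (85% O2) less normoxia (21% O2), at 6 h on the left and 24 h on the right, with the limma estimate as a point and its 95% interval as a line, ordered by role. Filled red and blue points passed the test as higher and lower, and open points did not. At 6 h no point is filled, and at 24 h Psmb8 and Psmc3ip lie farthest to the left, at -0.96 and -1.17.

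Of the alpha ring, 1 of 7 tested genes was called at 24 h, beside 28.3% of all genes. Psma2 stood at 6.49, 6.55, 6.53 and 6.44 in normoxia and at 6.70, 6.79, 6.76 and 6.78 in hyperoxia. Every hyperoxia array was above every normoxia array, and the change of 0.25 ± 0.09 had an adjusted p of 0.0389. The other alpha subunits, none of which passed, ranged from 0.00 for Psma1 to 0.18 for Psma7, with Psma3 at 0.14, Psma4 at 0.08, Psma5 at 0.14 and Psma6 at 0.16. The Psma2 call was lost with another background correction (adjusted p 0.0979), without the filter on dim probes (0.0628), and without any 1 of 9 of the 16 arrays (at most 0.0924, without normoxia replicate 4 of 24 h).

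Among the beta subunits without an active site, 3 of 4 tested genes were called higher at 24 h, beside 15.5% of all genes. Psmb1 stood at 4.78, 4.86, 4.78 and 4.91 in normoxia and at 5.17, 5.07, 5.04 and 4.95 in hyperoxia. The groups did not overlap, though the lowest hyperoxia array and the highest normoxia array were close, and the change was 0.22 ± 0.06 (adjusted p 0.0157). Psmb3 rose from 5.87 ± 0.05 to 6.06 ± 0.03 (SD, n = 4 each), a change of 0.19 ± 0.05 with an adjusted p of 0.0164. Psmb2 went from 2.67 ± 0.23 to 2.94 ± 0.07, and its groups overlapped (0.27 ± 0.10, adjusted p 0.0473). Psmb4, at 0.12, was not called. The Psmb2 call was lost in 3 of 10 other settings and in 12 of 16 fits without 1 array, and its change was 0.17 (adjusted p 0.131) without normoxia replicate 4 of 24 h, the lowest Psmb2 value of all. Without hyperoxia replicate 1 of 24 h the adjusted p of Psmb1 was 0.0568, and without normoxia replicate 3 of 24 h that of Psmb3 was 0.0523.

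The constitutive catalytic subunits were not called at 24 h while Psmb8, which takes the place of Psmb5, fell. Psmb5, the chymotrypsin-like subunit, stood at 7.22, 7.07, 7.18 and 7.14 in normoxia and at 7.22, 7.22, 7.20 and 7.18 in hyperoxia. These groups overlapped, and the change of 0.05 had a 95% interval of -0.11 to 0.22. Psmb6, the caspase-like subunit, stood at 6.51, 6.49, 6.43 and 6.48 against 6.50, 6.57, 6.48 and 6.40, a change of 0.01 with an interval of -0.12 to 0.14. Here too the groups overlapped. Psmb7, the trypsin-like subunit, stood at 3.83, 3.93, 3.94 and 3.98 against 4.12, 4.13, 4.00 and 3.92, with 3 of 4 hyperoxia arrays above all normoxia arrays. Its change was 0.12, with an interval of -0.06 to 0.31. In the 6 h arrays Psmb5 stood at 6.77, 6.71, 6.75 and 6.79 in normoxia and 6.88, 6.50, 6.89 and 6.71 in hyperoxia, with the hyperoxia arrays on both sides of the normoxia range. At 6 h Psmb6 stood at 6.51, 6.42, 6.41 and 6.42 in normoxia and 6.53, 6.36, 6.58 and 6.39 in hyperoxia, and Psmb7 at 3.96, 3.82, 3.91 and 3.99 against 3.88, 4.19, 3.85 and 4.18. In both genes the 6 h groups overlapped.

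At 24 h Psmb8 showed the largest fall of the proteasome subunits tested. It stood at 0.27, 0.57, 0.51 and 0.29 in normoxia and at 0.22, 0.56, 0.12 and 0.08 in hyperoxia at 6 h. At 24 h it stood at -0.06, 0.22, 0.02 and 0.10 in normoxia and at -1.04, -0.61, -1.0 and -0.91 in hyperoxia. All 4 hyperoxia arrays of 24 h lay below the other 12 arrays, and those of the 6 h groups overlapped. The change at 24 h was -0.96 ± 0.12, a 1.95-fold fall (adjusted p 3.31e-05), against -0.17 ± 0.12 at 6 h (adjusted p 0.866), and the difference between the effects was itself called at -0.79 ± 0.17 (adjusted p 0.00745). Between same-numbered 24 h arrays the difference ran from -1.02 to -0.83, lower in 4 of 4.

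The other immunoproteasome subunits changed by smaller amounts. Psmb10 stood at 4.19, 4.16, 4.00 and 4.01 in normoxia and at 3.85, 3.98, 3.78 and 3.68 in hyperoxia at 24 h. Its groups did not overlap, with the highest hyperoxia array just below the lowest normoxia array, and the change was -0.27 ± 0.09 (adjusted p 0.0332). The call was lost with another background correction (0.109), without the filter on dim probes (0.0544) and in 5 of 16 fits without 1 array (at most 0.103, without hyperoxia replicate 4 of 24 h). Psmb9, which takes the place of Psmb6, stood at -2.71, -2.66, -2.61 and -2.68 in normoxia and at -2.90, -2.35, -2.82 and -2.95 in hyperoxia at 24 h. The second hyperoxia array was above all normoxia arrays and the remaining hyperoxia arrays were below them, and the change was -0.09 ± 0.11 (adjusted p 0.592, interval -0.34 to 0.15). At 6 h Psmb9 stood at -2.01, -1.97, -2.07 and -2.12 in normoxia and -2.06, -1.90, -2.26 and -2.15 in hyperoxia, so both 24 h groups lay below both 6 h groups. Psmb9 has a second probe, for another transcript, which was not well above background.

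**Figure D2:**
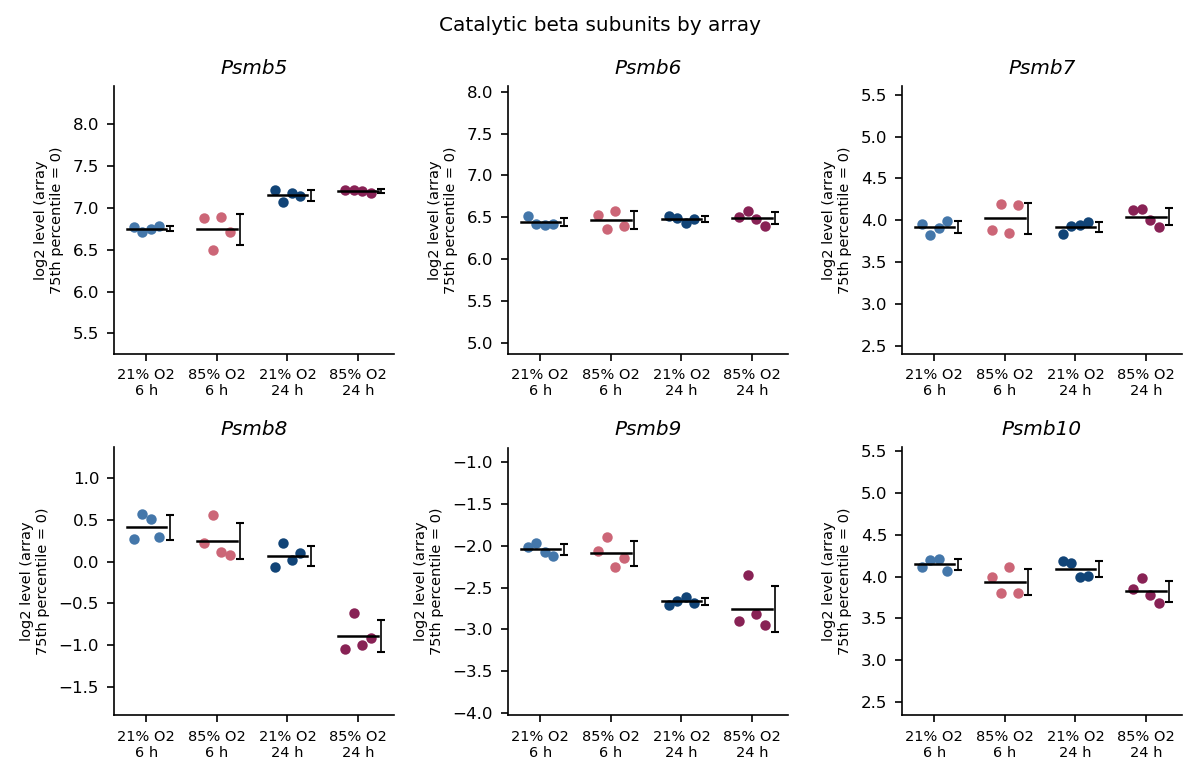
Log2 level of the constitutive (top) and interferon-induced (bottom) catalytic subunits on each array by oxygen and time, with the 75th percentile of each array at 0, the same span on every vertical axis, a line at the group mean and a bar of 1 SD (n = 4). The Psmb8 arrays of hyperoxia at 24 h, from -1.04 to -0.61, stand below all others, while Psmb5 and Psmb9 separate by time.

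Tap1, next to Psmb8, rose in the arrays in which Psmb8 fell. Tap1 stood at -3.20, -2.76, -2.60 and -2.86 in normoxia and at -0.98, -0.44, -1.05 and -0.99 in hyperoxia at 24 h. Every hyperoxia array was far above every normoxia array, and the change was 1.99 ± 0.15 (adjusted p 2.36e-07), against 0.73 ± 0.15 at 6 h (adjusted p 0.0657). The difference between these effects was 1.26 ± 0.22 (adjusted p 0.00151). Psmb9, which shares its start region with Tap1, changed by -0.09 at 24 h, and Psmb8, downstream of Tap1, by -0.96. Tap2, looked at after its values were seen, changed by 0.29 ± 0.15 (adjusted p 0.164). The second hyperoxia array of 24 h was the highest of its group for Psmb8, Psmb9, Tap1 and Tap2 alike. The 6 h change of Tap1 passed the test with another background correction (0.56, adjusted p 0.0437) and with array quality weights (0.86, adjusted p 0.0113), and without hyperoxia replicate 3 of 6 h (adjusted p 0.0479), normoxia replicate 1 of 24 h (0.0428) or hyperoxia replicate 2 of 24 h (0.0248). The 24 h change of Tap2 passed without hyperoxia replicate 1 of 24 h (0.42, adjusted p 0.0391).

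**Figure D3:**
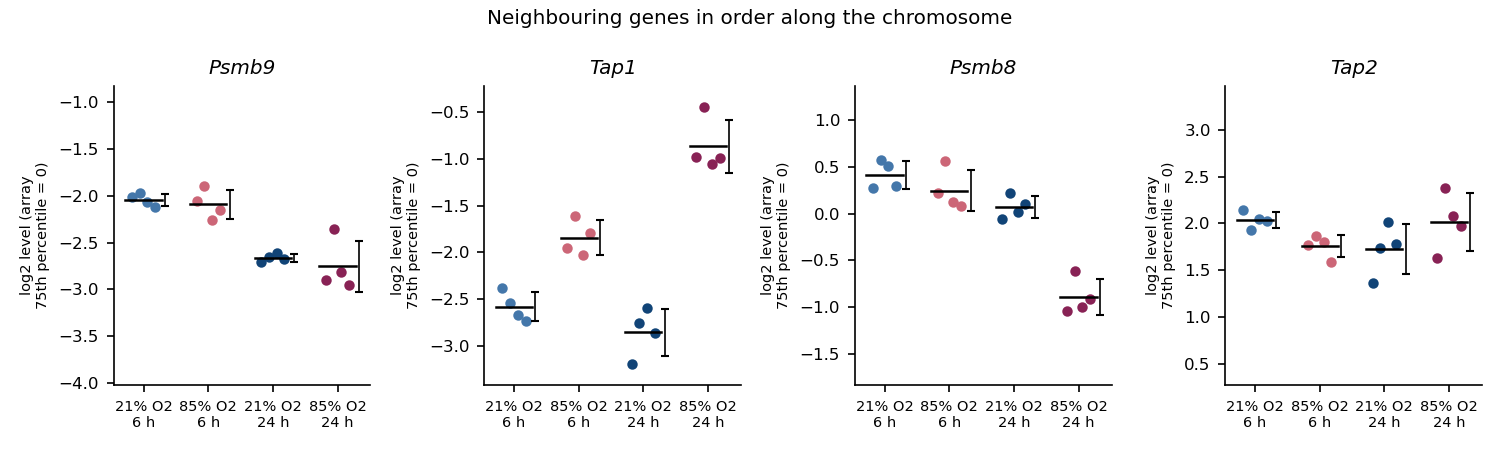
Log2 level of Psmb9, Tap1, Psmb8 and Tap2 on each array, in their order along the chromosome, by oxygen and time, with the group mean as a line and 1 SD as a bar (n = 4). At 24 h Tap1 was higher in hyperoxia by 1.99, Psmb8 was lower by a log2 change of -0.96, and Psmb9 and Tap2 overlapped between the oxygen levels.

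None of the 6 ATPases of the 19S ring was called at 24 h by limma, beside 28.3% of all genes. At an unadjusted p under 0.05 their count was also 0, beside 38% of all genes. Psmc6, the ATPase with the lowest p, stood at 3.71, 3.73, 3.63 and 3.55 in normoxia and at 3.84, 3.84, 3.77 and 3.81 in hyperoxia. The groups did not overlap, yet the change of 0.16 ± 0.09 had an adjusted p of 0.237 (unadjusted 0.112). The remaining changes were 0.09 for Psmc1, 0.00 for Psmc2, -0.01 for Psmc3, -0.03 for Psmc4 and -0.03 for Psmc5. Their 95% intervals lay within -0.20 and 0.22. The 6 h arrays of Psmc6 stood at 3.48, 3.62, 3.44 and 3.53 in normoxia and 3.72, 3.32, 3.85 and 3.59 in hyperoxia, where the hyperoxia arrays spread on both sides.

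Of the 11 other 19S subunits, 2 (18.2%) were called higher at 24 h, beside 15.5% of all genes. The 2 were the lid subunits Psmd8 and Psmd11. Psmd11 stood at 3.18, 3.28, 3.24 and 3.28 in normoxia and at 3.53, 3.51, 3.63 and 3.44 in hyperoxia. The groups did not overlap, and the change was 0.28 ± 0.07 (adjusted p 0.0046). Psmd8 rose from 4.73 ± 0.08 to 5.01 ± 0.11, by 0.28 ± 0.08 (adjusted p 0.0112). The ubiquitin receptor Psmd4 was at 0.16, with an adjusted p of 0.121. The scaffold subunits Psmd1 and Psmd2 were at -0.06 and 0.05, the deubiquitinase Psmd14 and its partner Psmd7 at 0.00 and -0.07, and the lid subunits Psmd3, Psmd6, Psmd12 and Psmd13 at 0.04, 0.02, 0.01 and 0.06, none of them called. At 6 h Psmd11 stood at 3.46, 3.21, 3.32 and 3.44 in normoxia and 3.42, 3.43, 3.35 and 3.35 in hyperoxia, with overlapping groups.

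Psmd5, a chaperone that assembles the 19S base, had the lowest p among the members that rose. It stood at 3.09, 3.09, 2.99 and 3.05 in normoxia and at 3.43, 3.41, 3.50 and 3.42 in hyperoxia at 24 h. At 6 h it stood at 3.26, 3.29, 3.12 and 3.32 in normoxia and 3.29, 3.30, 3.21 and 3.33 in hyperoxia. The 24 h groups were apart, with all 6 h arrays between them, and the change at 24 h was 0.39 ± 0.06 (adjusted p 0.000131) against 0.04 ± 0.06 at 6 h. The difference of the effects, 0.35 ± 0.08, was called (adjusted p 0.0104). The other base chaperones, Psmd9 and Psmd10 (gankyrin), were at 0.14 and 0.18 and were not called.

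Of the activators and the inhibitor of the 20S core, 2 of 5 were called at 24 h, both as higher, beside 15.5% of all genes called higher. Psmf1, the inhibitor PI31, stood at 0.45, 0.46, 0.72 and 0.61 in normoxia and at 0.92, 0.87, 0.83 and 0.83 in hyperoxia at 24 h. The groups did not overlap, and the change was 0.30 ± 0.07 (adjusted p 0.00448). At 6 h Psmf1 stood at 0.87, 0.90, 0.77 and 0.84 in normoxia and 0.96, 0.98, 0.85 and 1.07 in hyperoxia, so the 24 h normoxia arrays were the lowest of the 4 groups. Psme4, the nuclear activator PA200, went from 0.95 ± 0.23 to 1.31 ± 0.05, by 0.36 ± 0.10 (adjusted p 0.0179). A second Psme4 probe changed by 0.05 (adjusted p 0.718), and the mean over both probes by 0.21 (0.0689), so the probes disagreed. Without normoxia replicate 4 of 24 h the Psme4 adjusted p was 0.0593, and without normoxia replicate 1 it was 0.0508.

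The PA28 activator subunits, whose ring genes Psme1 and Psme2 are interferon-inducible, were not called in the main fit. Psme2 stood at 5.55, 5.58, 5.48 and 5.53 in normoxia and at 5.16, 5.4, 5.17 and 5.15 in hyperoxia at 24 h. The groups did not overlap, and the change of -0.31 ± 0.12 had an adjusted p of 0.0553, or 0.0311 with the replicate number as a block within each slide. A second probe gave -0.28 (adjusted p 0.0545) and another, dimmer probe for a different transcript 0.09. Psme1, the partner of Psme2 in the PA28 ring, was at -0.07, and Psme3, which forms the nuclear PA28 ring, at -0.30 (adjusted p 0.231). The 24 h groups of Psme3 did not overlap (1.81 to 1.95 in normoxia, 1.47 to 1.72 in hyperoxia). It was called lower with only the 24 h arrays (0.0153).

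Of the chaperones that assemble the 20S core, 2 of 4 were called lower at 24 h, beside 12.8% of all genes. Psmg2 stood at 2.98, 2.84, 2.86 and 2.79 in normoxia and at 2.32, 2.36, 2.32 and 2.29 in hyperoxia at 24 h. At 6 h it stood at 2.70, 2.71, 2.55 and 2.70 in normoxia and 2.75, 2.39, 2.79 and 2.46 in hyperoxia. All 4 hyperoxia arrays of 24 h were below all others, and the change was -0.55 ± 0.09 (adjusted p 0.000239) against -0.06 ± 0.09 at 6 h, a difference of -0.48 ± 0.12 (adjusted p 0.0178). Psmg1, with which Psmg2 forms a heterodimer, fell from 4.37 ± 0.02 to 3.99 ± 0.05, by a log2 change of -0.38 ± 0.07 (adjusted p 0.000879), and its second probe gave -0.28 (adjusted p 0.0143). The Psmg1 difference between times, -0.27 ± 0.10, was not called (adjusted p 0.104). Psmg3 and Psmg4, the other chaperone dimer, were at -0.19 (adjusted p 0.074) and -0.01.

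**Figure D4:**
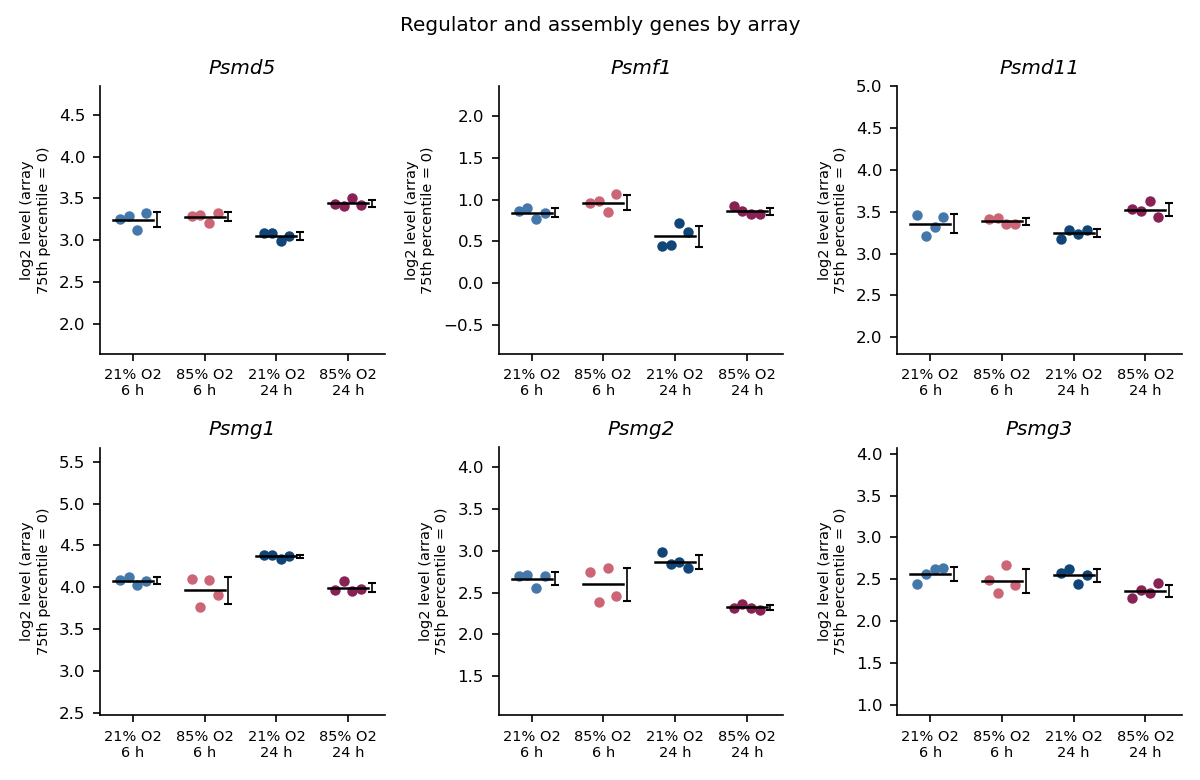
Log2 level of the 19S chaperone Psmd5, the inhibitor Psmf1, the lid subunit Psmd11 and the 20S chaperones Psmg1, Psmg2 and Psmg3 on each array, with the 75th percentile of each array at 0, the group mean as a line and 1 SD as a bar (n = 4). At 24 h Psmd5, Psmf1 and Psmd11 were higher in hyperoxia and Psmg1 and Psmg2 lower, without overlap.

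Psmc3ip, the recombination cofactor that shares the prefix, showed the largest change under the rule. It stood at -0.06, 0.30, -0.01 and -0.04 in normoxia and -0.01, 0.12, -0.26 and -0.08 in hyperoxia at 6 h. At 24 h it stood at -0.16, -0.37, -0.35 and -0.09 in normoxia and -1.25, -1.32, -1.5 and -1.57 in hyperoxia. The last group was below all other arrays, and the change was -1.17 ± 0.11, a 2.25-fold fall (adjusted p 1.73e-06), against -0.11 ± 0.11 at 6 h, with a difference of -1.06 ± 0.15 (adjusted p 0.000394). Of 4 germ cell markers, Dmc1 alone could be tested and was well above background on no 24 h array, and Ddx4 and Stra8 on no array at all. Their summed level at 24 h ran from -4.87 to -4.20 in normoxia and from -5.06 to -3.70 in hyperoxia.

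The hyperoxia effect differed between the times in 4 of 47 members, beside 12.3% of all genes (6.63% higher and 5.63% lower). Psmd5 was the 1 with a more positive effect at 24 h, and Psmb8, Psmg2 and Psmc3ip had more negative ones. These 4 calls, and those of Psmb8, Psmc3ip, Psmd5, Psmd8, Psmd11, Psmf1, Psmg1 and Psmg2 at 24 h, held in every alternative run, including each of the 16 fits without 1 array. The remaining 6 calls at 24 h (Psma2, Psmb1, Psmb2, Psmb3, Psmb10 and Psme4) were each lost in at least 1 of them.

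Between 6 h and 24 h, the catalytic subunit Psmb5 rose and Psmb8, Psmb9, the lid subunit Psmd3 and the alpha subunit Psma1 fell in both oxygen levels. In normoxia 3 members were higher and 8 lower at 24 h, beside 44.2% of all genes (20.6% higher and 23.5% lower). The groups did not overlap for 5 higher and 13 lower members, beside 44.1% of all genes (21.9% and 22.2%). In hyperoxia 4 were higher and 8 lower, beside 52.4% of all genes (25% and 27.4%), and the groups did not overlap for 5 higher and 5 lower members, beside 45.3% (21.2% and 24.1%). The members called came to 23.4% in normoxia and 25.5% in hyperoxia. The time comparisons depended on the scaling: with quantile normalization the counts were 2 higher and 24 lower in normoxia, beside 18.4% and 20.9% of all genes, and 1 higher and 18 lower in hyperoxia, beside 23.4% and 23.9%. The share of members called was then 55.3% in normoxia, above the 39.3% of all genes where it had been below, and 40.4% in hyperoxia, beside 47.3%. The members' median moved from -0.06 to -0.18 in normoxia and from 0.01 to -0.12 in hyperoxia. Both comparisons set the same pair of slides against each other, and their values are given side by side.

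Psmb5 rose by 0.40 ± 0.08 (adjusted p 0.000885) in normoxia and 0.46 ± 0.08 (adjusted p 0.000192) in hyperoxia, and the normoxia call was lost with quantile normalization (0.15, adjusted p 0.091). Its second probe rose less, by 0.16 and 0.21. Psmb9 fell by a log2 change of -0.62 ± 0.11 and -0.66 ± 0.11, the lid subunit Psmd3 by -0.44 ± 0.06 and -0.42 ± 0.06, and the alpha subunit Psma1 by -0.27 ± 0.09 and -0.29 ± 0.09, so the oxygen levels gave similar values for these. Psmb8 fell in both, by -0.34 ± 0.12 in normoxia and -1.13 ± 0.12 in hyperoxia.

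Other members were called in 1 oxygen level. In normoxia Psme3 (0.51) and Psmg1 (0.29) rose, and Psmd9 (-0.28) and Psmf1 (-0.29) fell. In hyperoxia Psmb1 (0.17) and Psmb3 (0.19) rose, and Psme1 (-0.30), Psme2 (-0.37) and Psmg2 (-0.28) fell. Psmc3ip fell in both, by -0.29 in normoxia and -1.35 in hyperoxia. Psmd5 went from 3.25 ± 0.09 to 3.05 ± 0.05 in normoxia (-0.20, adjusted p 0.013) and from 3.28 ± 0.05 to 3.44 ± 0.04 in hyperoxia (0.16, adjusted p 0.0336). Its rise was not called in 5 of 9 other settings, among them quantile normalization (0.08, adjusted p 0.295). Nor was it called without replicate 1 or 3 of hyperoxia at 6 h (adjusted p 0.0534 and 0.0657) or at 24 h (0.0588 and 0.0944). The rise of Psmb1 was lost in 5 of 9 other settings and in 6 of 16 fits without 1 array (at most 0.125). That of Psmb3 was lost in 4 of 9 other settings. Quantile normalization was among the settings for both (both 0.08, adjusted p 0.263 and 0.221). The hyperoxia calls of Psma1, Psme2 and Psmg2 were each lost in 1 of 9 other settings (adjusted p 0.0643, 0.0677 and 0.0596). That of Psma1 was also lost in 1 of 16 fits without 1 array (0.0561). The normoxia calls of Psma1, Psmb8, Psmc3ip and Psme3 were each lost in several fits without 1 normoxia array, with adjusted p-values of at most 0.0858 (without replicate 4 of 24 h), 0.0923 (without replicate 2 of 6 h), 0.133 (without replicate 2 of 6 h) and 0.0909 (without replicate 1 of 6 h). Among these genes, the oxygen levels differed by a test of the difference in Psmb8, Psmc3ip, Psmd5 and Psmg2.

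**Figure D5:**
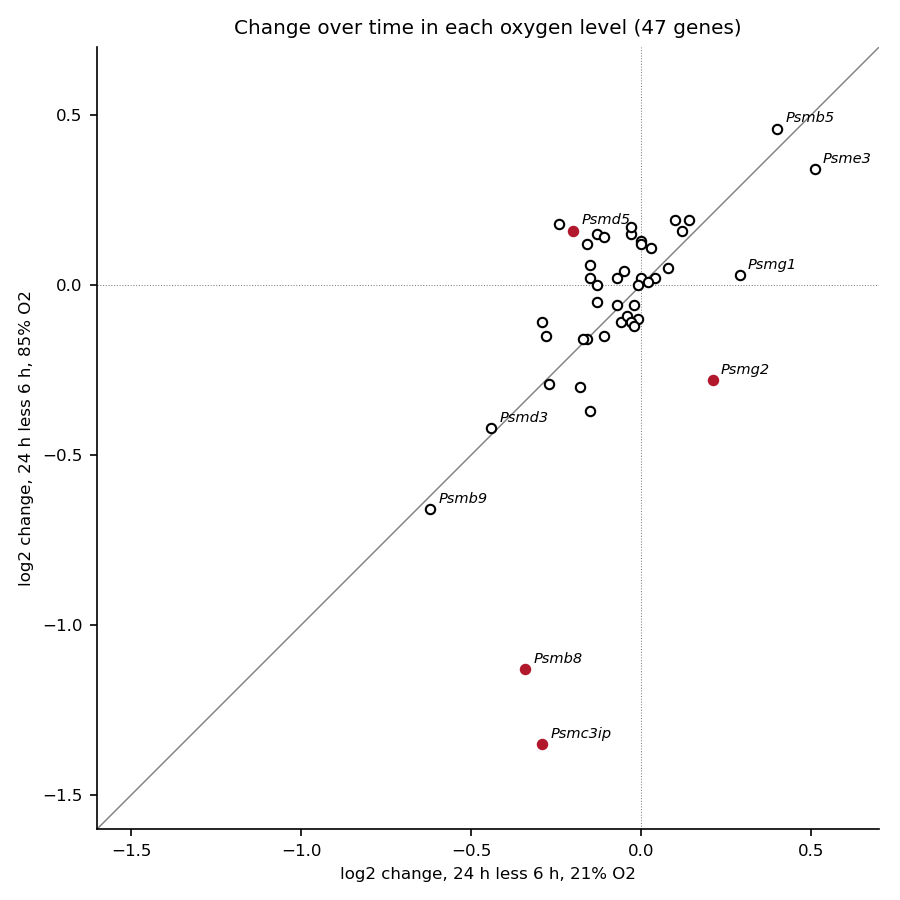
Log2 change from 6 h to 24 h in normoxia (horizontal) and in hyperoxia (vertical) for the 47 tested members, with the line of equal change. Filled red points are the 4 genes whose hyperoxia effect differed between the times, Psmb8, Psmc3ip, Psmd5 and Psmg2, and Psmb5, Psmb9 and Psmd3 lie near the line.

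Genes that feed and regulate the proteasome changed in both directions at 24 h. Of 24 tested ubiquitin genes and proteasome partners, 4 were called higher and 4 lower in hyperoxia, with a median change of -0.03. The shares of all genes tested were 15.5% higher and 12.8% lower. Txnl1, a thioredoxin-like protein of the 19S lid, fell by a log2 change of -0.54 ± 0.09 (adjusted p 0.000274), Ufd1l, a cofactor of the Vcp segregase, rose by 0.39 ± 0.08 (adjusted p 0.00261), and the ubiquitin shuttle Ubqln2 fell by -0.37 ± 0.07 (adjusted p 0.000649). The others called were Ubb (0.23), Rad23b (0.24) and Ube3a (0.35) as higher and Uchl5 (-0.30) and Ddi2 (-0.25) as lower. A second, dimmer probe was not called by limma over all probes for Ufd1l (0.18, adjusted p 0.283) or Ubb (0.13, adjusted p 0.201). The same held for Rad23b (0.14, adjusted p 0.118) and Ddi2 (-0.22, adjusted p 0.0745). The core maturation factor Pomp was at -0.03 and Usp14 at -0.05, neither called. The Ddi2 call was lost in 3 of 10 other settings and in 6 of 16 fits without 1 array (at most 0.116, without hyperoxia replicate 3 of 24 h). Apart from Txnl1, Ufd1l and Ubqln2, these genes were named after their values were seen.

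Of 13 regulators of proteasome gene transcription, 3 were called higher and 1 lower at 24 h, beside 15.5% and 12.8% of all genes. Nfe2l1, known for raising proteasome subunit genes when proteasome activity falls, stood at 0.50 ± 0.25 in normoxia and 0.00 ± 0.08 in hyperoxia (SD, n = 4 each), a change of -0.50 ± 0.11 (adjusted p 0.0025). At 6 h it was at -0.13 ± 0.12 and -0.11 ± 0.09, so it rose over time in normoxia by 0.63 (adjusted p 0.000379), with 0.12 (adjusted p 0.371) in hyperoxia, and the difference of the effects was called (-0.51 ± 0.15, adjusted p 0.037). That difference was not called with the replicate number as a block over both slides (adjusted p 0.0595), without the filter on dim probes (0.0624) or in 10 of 16 fits without 1 array (at most 0.0767, without normoxia replicate 3 of 6 h). The CCAAT-binding subunits Nfya and Nfyb rose by 0.49 ± 0.09 (adjusted p 0.00073) and 0.32 ± 0.06 (adjusted p 0.000669). Mafk, a small partner of the Nfe2l factors, rose by 0.27 ± 0.09 (adjusted p 0.0315), a call lost in 3 of 10 other settings and in 5 of 16 fits without 1 array (at most 0.0847, without normoxia replicate 2 of 24 h). Nfe2l2, the NRF2 factor, was at 0.15 ± 0.12 and was not called. Of 21 tested genes of antigen processing and interferon control, 4 were called higher and 1 lower, beside 15.5% and 12.8% of all genes. Those called on this list included Nlrc5, an activator of class I genes, at 0.71 ± 0.10 (adjusted p 6.58e-05), and Irf2 at 0.37 ± 0.12 (adjusted p 0.0318), beside Tap1. The others, named after their values were seen, were Irf9 (0.36) as higher and the interferon receptor subunit Ifnar2 (-0.27) as lower. With another background correction the Nlrc5 change was 0.09 (adjusted p 0.389), so its size rests on how background was removed. The Irf2 call was lost without the filter on dim probes (0.0509) and in 5 of 16 fits without 1 array (at most 0.0914, without normoxia replicate 3 of 24 h), and the Ifnar2 call in 3 of 10 other settings and 11 of 16 such fits (at most 0.126, without hyperoxia replicate 4 of 24 h). Irf1 was at -0.01 and was not called. The interferon gene Ifnb1 was well above background on no array and Ifng on 1 of 16.

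Markers of type II and other cells moved with oxygen and time in part, and their part in the results on the members was not tested. At 24 h, 15.5% of all genes were called higher in hyperoxia and 12.8% lower. Of the 9 tested type II markers, 1 rose and 4 fell in hyperoxia at 24 h, namely Abca3 (0.68) as higher and Lamp3 (-1.03), Sftpb (-0.95), Etv5 (-0.79) and Lpcat1 (-0.28) as lower. The Lpcat1 call was lost in 3 of 10 other settings and in 12 of 16 fits without 1 array (at most 0.142, without hyperoxia replicate 1 of 24 h). Their summed level ran from 5.30 to 5.49 in normoxia and from 4.87 to 5.18 in hyperoxia. Of 14 leukocyte markers, 1 rose (Cd68, by 1.02 ± 0.09), and the sum ran from 6.15 to 6.44 and from 6.42 to 6.50, while Ptprc, the pan-leukocyte marker, was at -4.67 ± 0.13 and -4.38 ± 0.65. The mean level of Cd68 over all arrays was -0.15, so other genes of the list made up most of the sum. A second, dimmer Cd68 probe gave 0.87 and was not called by limma over all probes (adjusted p 0.0791). Of 6 fibroblast and smooth muscle markers 0 were called by limma and 2 had an unadjusted p under 0.05, with sums of 10.59 to 10.80 and 10.46 to 10.59. With the replicate number as a block within each slide Col1a2 was called lower (-0.31, adjusted p 0.00612), as it was with another background correction (0.0486), with only the 24 h arrays (0.0105) and without hyperoxia replicate 1 of 6 h (0.0411). Of 3 tested endothelial markers 1 fell (Egfl7, -0.31), with sums of 4.10 to 4.42 and 4.23 to 4.43, and of 2 airway markers 1 rose (Scgb1a1, 0.78), with sums of -0.13 to 0.48 and 0.61 to 0.81. The Scgb1a1 call was lost in 6 of 16 fits without 1 array (at most 0.0711, without normoxia replicate 2 of 24 h). From 6 h to 24 h in normoxia, 1 type II marker rose and 6 fell, 5 fibroblast markers rose and both airway markers fell. Beside these, 20.6% of all genes were called higher and 23.5% lower. The normoxia sums at 6 h ran from 5.91 to 6.21 for type II, from 9.81 to 10.04 for fibroblast and from 4.52 to 5.54 for airway markers.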

How the data were processed

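Total RNA was labelled with Cy3 and hybridised to 16 one-colour arrays, per the labels. The authors deposited Agilent Feature Extraction 10.7.3.1 files, the version per the submitters' processing notes. Per the file headers, these intensity values had background and spatial trend removed on each array, and arrays were not scaled to each other. A series table that the authors deposited holds log2 values (median 7.19 on every array), with a method not given in the sources used here. It was used as an alternative only.

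Spots marked as outliers were dropped unless a probe had no other, replicate spots were averaged, log2 was taken and each array was centred on its 75th percentile over non-control probes. A gene was the brightest probe of a gene name and was tested where 3 or 4 arrays of some group had it well above background. limma 3.58.1 in R 4.3.3 fitted 1 mean per group over 16 arrays, with 5 contrasts and Benjamini-Hochberg adjustment over 25433 genes. The number of arrays limits the precision. The script was tested on simulated data. The members and lists were chosen with earlier results of these data known. In the list of ubiquitin genes and proteasome partners, 1 gene is not reported here. Per-array values are given for the catalytic subunits, for the member with the lowest p at 24 h in each other role and for members called in the difference, and beside these for Psme2. Of other lists, up to 3 called genes with the largest change at 24 h are named, or the 2 brightest, and others were named after their values were seen.

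Same-numbered arrays of the 24 h groups deviated together (correlations of 0.25, 0.34, 0.25 and 0.26 over genes, each array matching its own number best). The main fit did not pair them, and the replicate number entered only as a block in alternative runs. The replicate number is also the slide column on both slides, so number and position on the slide cannot be told apart. At 6 h the correlations were 0.25, 0.25, 0.35 and 0.087, and 7 of 8 arrays matched their own number best. Promoter windows came from the RefSeq table of GRCm38.p6, with 250 bases before and 50 after each start. Alternatives changed the background correction, scaling, filter, probe choice, arrays fitted, array weights and replicate block, and left out each array.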

Additional observations from a re-analysis of the deposited data

Results flagged for a closer look

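Among 188 group values of the members, 9 had an array that stood apart from the others of its group, and chance gives about 1 in 20. In normoxia at 24 h these were Psma6 at 4.29 and Psmb4 at 6.18, both on replicate 3, the array with the lowest 75th percentile, against at least 4.42 and 6.38 on the others, and Psmc5 at 5.08 on replicate 2. In normoxia at 6 h they were Psmb6 at 6.51 on replicate 1, Psmc3ip at 0.30 on replicate 2 and Psmg2 at 2.55 on replicate 3. In hyperoxia they were Psme1 at 3.73 on replicate 1 of 6 h, Psmc2 at 6.00 on replicate 4 of 24 h and Psme2 at 5.4 on replicate 2 of 24 h. Of the genes outside the family, Txnl1 at -0.98 and Tap1 at -0.44 stood apart on that same replicate 2, Lamp3 at 3.18 on replicate 4 of hyperoxia at 24 h, Scgb1a1 at -0.34 on replicate 4 of normoxia at 24 h, and Tagln at 8.11 and Ubb at 8.08 on replicate 3 of normoxia at 6 h.

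By limma's interaction test, the change with hyperoxia at 24 h minus that at 6 h was called for Psmb8 (-0.79), Psmc3ip (-1.06), Psmd5 (0.35) and Psmg2 (-0.48). Outside the family it was called for Txnl1 (-0.48), Ube3a (0.44), Nfe2l1 (-0.51), Nfya (0.44), Tap1 (1.26), Nlrc5 (0.58), Irf9 (0.50), Lamp3 (-0.87), Sftpb (-1.26), Etv5 (-0.50), Abca3 (0.56) and Cd68 (0.78). Of these, Nlrc5 was at 0.00 with normexp (adjusted p 0.981), Ube3a (0.053) and Irf9 (0.0545) were not called with the replicate block within each slide, Nfe2l1 (0.0595) was not with the block over both slides, and Cd68 (0.0578) was not with the mean over probes. Without the filter on dim probes Nfe2l1 (0.0624), Nfya (0.0582) and Irf9 (0.0526) were not called. Among 16 fits without 1 array, Nfe2l1 was lost in 10, Nfya in 7, Irf9 in 7 and Sftpb in 6, with adjusted p-values of at most 0.0767 (without normoxia 6 h replicate 3), 0.0745 (normoxia 6 h replicate 4), 0.0654 (hyperoxia 24 h replicate 3) and 0.0642 (normoxia 6 h replicate 3). Since all 24 h arrays were on another slide than the 6 h arrays, time and slide cannot be told apart in these differences.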

How the results depend on the processing

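The comparison at 6 h gave 0 members in every setting and every fit without 1 array. At 24 h the median change was 0.05 to 0.08 over the settings. The only count that moved by over 1.5 times was of lower members, 8 with only the arrays of the contrast, beside 13.9% of all genes. The comparisons over time moved most. With normexp, the lower count in hyperoxia was 13 (median -0.05), beside 18.1% of all genes, and the higher count of the difference 3, beside 6.59%. With quantile normalization it was 24 lower in normoxia (median -0.18) and 1 higher and 18 lower in hyperoxia (median -0.12), and with the authors' deposited series values 24 lower (median -0.18), and 1 higher and 17 lower (median -0.12). Of all genes, 20.9% were lower in normoxia, and 23.4% were higher and 23.9% lower in hyperoxia, with either of these. The cause of these shifts was not tested. Without the filter on dim probes 2 were higher over time in hyperoxia, beside 17.2% of all genes. With only the arrays of the contrast 1 was higher and 5 lower, beside 21.2% and 25.9%. With array quality weights 13 were lower in normoxia, 10 higher in hyperoxia and 5 higher in the difference. Calls over all genes rose too, to 27.7%, 28.7% and 12.4%, from 23.5%, 25% and 6.63% in the main fit. The replicate block within each slide added Psme4 to the difference (2 higher, beside 9.38% of all genes) and Psme2 at 24 h. The block over both slides lost Psmb1 over time in hyperoxia (adjusted p 0.0607), and between times the same-numbered arrays did not deviate together (correlations of 0.0044 to 0.083).

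Signs turned over time in normoxia under both quantile normalization and the authors' deposited values for Psmb6 (-0.15), Psmc1 (-0.17) and Ubb (-0.30), and in hyperoxia for Psmb6 (-0.14) and Ubb (-0.09), and for Psmc3 (-0.14) under quantile normalization. With normexp Nlrc5 (0.00) and Dmc1 (0.15) turned over time in normoxia.

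Leaving out 1 array gave 6 to 11 higher and 4 to 7 lower at 24 h, 2 to 4 and 6 to 9 over time in normoxia, 2 to 9 and 7 to 9 over time in hyperoxia, and 1 to 3 and 3 to 4 in the difference. The 9 came without hyperoxia 6 h replicate 3, beside 26.6% of all genes called higher. The count was 2 without hyperoxia 6 h replicate 1, or replicate 1 or 3 of hyperoxia at 24 h, beside 24.1%, 22.4% and 21.9%. The 3 in the difference came without normoxia 6 h replicate 2, and 2 without hyperoxia 6 h replicate 3 or normoxia 24 h replicate 3. The medians ran from -0.01 to 0.03 at 6 h, 0.03 to 0.07 at 24 h, -0.08 to -0.04 and -0.05 to 0.05 over time in normoxia and hyperoxia, and -0.01 to 0.05 in the difference. The number of arrays, 4 per group, limits the precision, and levels of Psma8 and Psmb11 are bounded by the background.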
